A study of Mus musculus with 5 samples.

Results

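The genes described here are 9 genes of haem synthesis: Alas1, Alas2, Alad, Uros, Urod, Cpox, Ppox and Fech, which encode enzymes of the pathway, and Slc25a38, which encodes a mitochondrial carrier that supplies it. They were chosen by symbol, with earlier results of these data known, and the list does not cover every step of the pathway. All 9 were found among the 54113 named rows of the count table, and all 9 passed the filter on low counts that left 16133 genes for testing. RNA sequencing was performed on tissue labelled as tumour from C57BL/6 mice bearing MC-38 tumours, a mouse colorectal cancer (CRC) line that the study implanted under the skin. The mice were kept for 2 weeks at 30 °C (3 libraries) or at 4 °C (2 libraries), and every mouse in both groups carried the tumour. The marker genes given below put the tissue label in doubt. The labels give neither the age nor the sex of these animals, the study's methods describe young mice of both sexes that were first adapted to a cool room, and no genetic change or drug is named for either group. The comparison asks how cold exposure of the host relates to the expression of these genes in the removed tissue.

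Haem is an iron-containing ring that carries oxygen in haemoglobin and electrons in cytochromes. Its synthesis starts in the mitochondrion, where 5-aminolaevulinate synthase joins glycine to succinyl-CoA, continues through ring-building enzymes in the cytosol, and ends back in the mitochondrion, where ferrochelatase inserts iron. The starting enzyme exists in a form made in all tissues, encoded by Alas1 and held down by haem itself, and a form made in red-cell precursors, encoded by Alas2. Most haem in the body is made in erythroblasts, the precursors of red cells, and in mice the spleen as well as the bone marrow makes red cells.

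The libraries held 16191708 to 20320525 counts in named genes. Levels are given as CPM, a library's counts set to a common total and scaled between libraries by trimmed mean of M values (TMM), unless another scale is named. Marker genes of other cell types were read first, because the values of a bulk library mix all of its cells, and fewer cells of a type and less RNA per cell cannot be told apart. The 13 erythroblast markers found summed to 14069 to 41434 CPM at 30 °C and 32360 to 40316 CPM at 4 °C. The 10 epithelial markers, which include Epcam and Krt8, summed to 19.7 to 171 CPM at 30 °C and 19.0 to 91.3 CPM at 4 °C, so markers of a carcinoma were low in every library, with Krt19 and Cdx2 each at 0 counts in 2 of 5 libraries. The 8 genes of the splenic stroma list, among them Tlx1, summed to 894 to 1122 CPM at 30 °C and 982 to 1021 CPM at 4 °C, and the 8 B-cell genes to 1225 to 3271 CPM and 3072 to 3683 CPM. The 12 pancreatic acinar genes reached 275885 CPM in 30 °C replicate 2 and 1824 CPM in 4 °C replicate 2, against at most 63.4 CPM in the other 3 libraries. The 10 neutrophil genes summed to 2896 to 12793 CPM at 30 °C and 2469 to 3983 CPM at 4 °C, and the 10 proliferation genes to 2180 to 2795 CPM and 1460 to 1566 CPM. Within the stroma list Vcam1 had 375 to 606 CPM and Tlx1 14.2 to 28.0 CPM. The list also holds the macrophage genes Cd5l, at 110 to 499 CPM, and Spic, at 67.9 to 126 CPM. Vcam1 and Cd5l together made up most of its sum in every library. Tlx1 was below Krt8 in 30 °C replicates 1 and 2 and in 4 °C replicate 2. As sums, the erythroblast, B-cell and splenic stroma lists thus stood above the epithelial list in every library, which goes against the label of a colorectal tumour. The haem genes are described for the libraries as labelled, whatever tissue they hold. The marker levels move with the samples in which the haem genes are compared, and their part in the results was not tested.

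Regulatory sequence was read beside the levels. GATA1 is the transcription factor that drives erythroid genes and binds short words built on GATA, and the iron-responsive element is a hairpin in the leader of the Alas2 transcript to which iron regulatory proteins bind when iron is scarce. The windows of 250 bases before each annotated start (RefSeq, GRCm38.p6) were searched on both strands for AGATAA or TGATAA or AGATAG or TGATAG. The table held 11 windows for 8 of the 9 genes, and Fech was the gene without an entry. A word was found in 3 of the 11 windows (27.3%), those of Alas2, Cpox and the downstream start of Uros, against 26.5% of 32851 windows of all genes. The 3 windows are shown because they place the words, which are in capitals, and the other windows held none. Bases inside annotated exons were left out of the printed stretches, which removed a second word from the Uros window. In Alas2 the word ended 80 bases before the start, and in Cpox the capitals cover 2 overlapping words that ended 85 and 80 bases before it.
Alas2 upstream, chrX:150547167-150547374, plus strand: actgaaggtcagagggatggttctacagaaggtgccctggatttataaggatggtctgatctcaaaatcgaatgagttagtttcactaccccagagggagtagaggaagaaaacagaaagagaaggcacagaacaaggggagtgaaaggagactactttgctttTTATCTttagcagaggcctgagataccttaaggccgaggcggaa
Cpox upstream, chr16:58669958-58670207, plus strand: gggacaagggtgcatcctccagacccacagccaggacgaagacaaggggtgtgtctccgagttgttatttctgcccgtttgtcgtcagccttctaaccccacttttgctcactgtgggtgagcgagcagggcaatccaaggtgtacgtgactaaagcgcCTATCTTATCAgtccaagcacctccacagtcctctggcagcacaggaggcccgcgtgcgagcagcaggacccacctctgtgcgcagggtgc
Uros downstream start, chr7:133702617-133702750, minus strand: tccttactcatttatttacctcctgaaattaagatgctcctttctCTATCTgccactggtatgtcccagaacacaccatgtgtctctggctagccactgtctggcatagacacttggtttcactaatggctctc
A match is a description of letters and not a bound site.

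Leaders of the transcripts (GENCODE M21, GRCm38) were also searched for an iron-responsive-type hairpin, taken as a loop of CAGTGN closed by 5 base pairs with a C bulging from the 5′ side of the stem. Among the 9 genes, the hairpin was found in Alas2 alone, against 31 of 21599 genes with a leader (0.144%). It is printed because it sets the erythroid synthase apart from Alas1 and from the other haem synthesis genes of the list, with the loop in capitals. The 30 bases lie in a pair of exons joined by splicing, within chrX:150547458-150552150, and the loop occupies bases 96 to 101 of a leader of 126 bases.
Alas2 iron-responsive element: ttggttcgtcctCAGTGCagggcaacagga

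Transcripts of the starting enzyme came mostly from the erythroid gene, at a level that did not separate the groups. Alas2 (ENSMUSG00000025270.13, chrX:150547375-150570638) had 1055, 1509 and 495 CPM in 30 °C replicates 1, 2 and 3 and 1099 and 953 CPM in 4 °C replicates 1 and 2. The 3 libraries at 30 °C enclosed both libraries at 4 °C, and 30 °C replicate 2 was the highest while 30 °C replicate 3 was the lowest of all. This order depended on the scaling, because on plain library totals 4 °C replicate 1 was above every 30 °C library, at 1189 CPM against at most 1136 CPM. The further values are again on the TMM scale. The highest library was 3.05 times the lowest at 30 °C and 1.15 times at 4 °C. The group means were 1019.9 ± 508 CPM (SD, n = 3) and 1026 ± 103 CPM (SD, n = 2), and the log2 fold change of 4 °C against 30 °C was 0.01 (standard error 0.44, edgeR adjusted p = 1.00, Benjamini-Hochberg). Its 95% interval ran from -1.04 to 1.06, so the 5 libraries did not exclude a change of up to about either bound. The sign rested on single libraries, with a log2 fold change of 0.39 without 30 °C replicate 2, the library rich in acinar transcripts, and -0.32 without 30 °C replicate 3.

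Alas1 (ENSMUSG00000032786.16, chr9:106233455-106248654), which encodes the synthase of all tissues, had 122, 64.0 and 44.4 CPM in the 3 libraries at 30 °C and 44.9 and 53.8 CPM in those at 4 °C. The groups overlapped, and 30 °C replicate 1 stood above the other 4 libraries. The same library had the highest sum of the neutrophil markers, 12793 CPM, and whether the 2 are related was not tested. The log2 fold change of Alas1 was -0.64 (standard error 0.42, edgeR adjusted p = 0.83), with a 95% interval from -1.65 to 0.38. Without 30 °C replicate 1 it was -0.13, so this library carried most of the difference.

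Read per kilobase of exon, so that the genes can be set against each other, Alas2 exceeded Alas1 by 22.3, 60.6 and 28.7 times in 30 °C replicates 1, 2 and 3. At 4 °C the ratio was 62.9 and 45.5 times. The exon unions used were 2403 bases for Alas2 and 6174 for Alas1, so these ratios are larger than those of CPM. On CPM not divided by exon length, the log2 ratio of Alas2 to Alas1 averaged 3.72 ± 0.75 at 30 °C (SD, n = 3). At 4 °C that log2 ratio averaged 4.38 ± 0.33 (SD, n = 2), a difference of 0.66 with a two-sided exact permutation p of 0.4. The groups overlapped, and with 10 ways to divide 5 libraries the smallest p this test can give is 0.2.

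**Figure D1:**
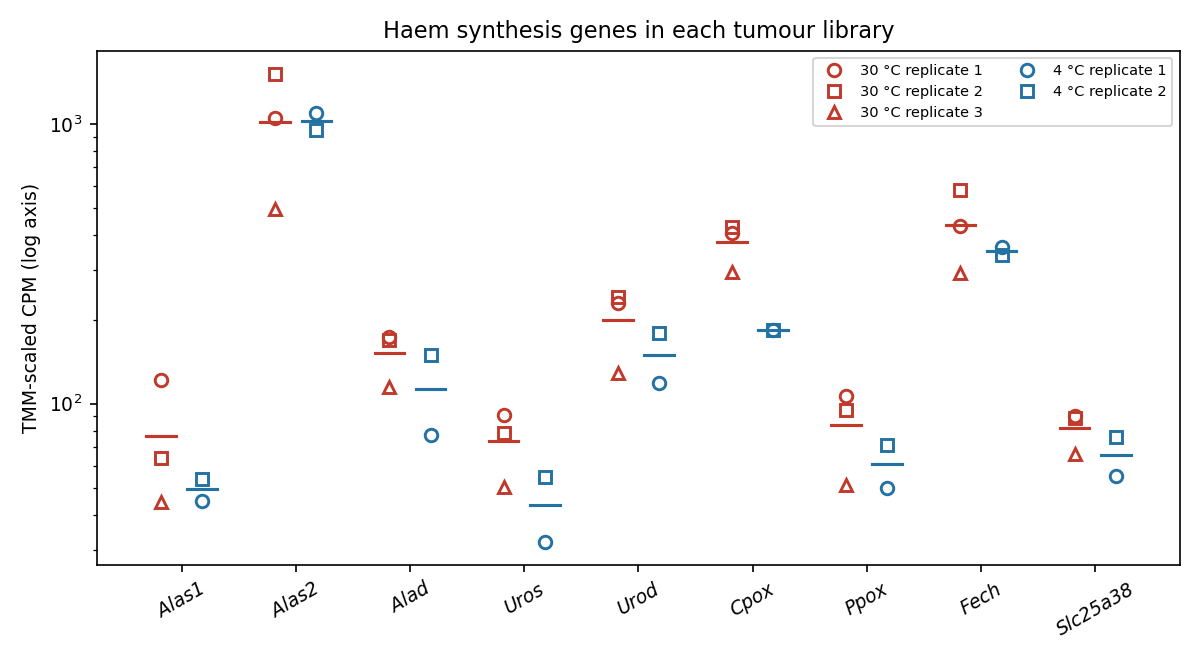
Levels of the 9 haem synthesis genes in each library, as TMM-scaled CPM on a log axis, with a red symbol for each 30 °C library, a blue symbol for each 4 °C library and a bar at each group mean. Cpox is the gene whose 3 libraries at 30 °C (296 to 430 CPM) all lie above both libraries at 4 °C (184 CPM each).

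The cytosolic enzymes and the mitochondrial steps that follow were lower in mean at 4 °C, and Cpox stood apart from them. Across the whole list, 8 of 9 genes had a negative log2 fold change, where 49.3% of all 16133 genes tested had one. The median log2 fold change of the list was -0.43, against 0.01 over all genes tested. Its size rested on the 4 °C libraries, at -0.24 without 4 °C replicate 1 and -0.78 without 4 °C replicate 2, and on 30 °C replicate 3, without which it was -0.66. None of the 9 passed an adjusted p of 0.05 in edgeR, where 0% of all genes did, and 1 of the 9, Cpox, had an unadjusted p under 0.05 and a lower level at 4 °C, as had 4.17% of all genes. With DESeq2's Wald test, which called 0.891% of the genes it adjusted, 1 of the 9 passed, again Cpox.

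Alad (ENSMUSG00000028393.10, chr4:62509169-62519918) encodes the enzyme that pairs aminolaevulinate into porphobilinogen. Its levels ran from 115 to 173 CPM at 30 °C and were 77.3 and 149 CPM at 4 °C. The groups overlapped because 4 °C replicate 2 lay above 30 °C replicate 3, and the log2 fold change was -0.43 (standard error 0.33, edgeR adjusted p = 0.85). It was -0.03 without 4 °C replicate 1 and -0.995 without 4 °C replicate 2.

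Uros (ENSMUSG00000030979.13, chr7:133686243-133710072) encodes uroporphyrinogen III synthase, which closes the ring. Its levels were 91.1, 78.4 and 50.2 CPM in the libraries at 30 °C and 32.1 and 54.6 CPM in those at 4 °C. Here 4 °C replicate 2 lay just above 30 °C replicate 3, while 4 °C replicate 1 was the lowest of the 5 libraries. The log2 fold change was -0.76 (standard error 0.34, edgeR adjusted p = 0.75), the most negative of the list after Cpox. On CPM from plain library totals the groups of Uros did not overlap, so the order of its nearest libraries depended on the scaling.

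Urod (ENSMUSG00000028684.14, chr4:116989965-116994413) encodes the decarboxylase that acts on that ring in the cytosol. Its levels ran from 129 to 240 CPM at 30 °C and were 119 and 179 CPM at 4 °C, with a log2 fold change of -0.42 (standard error 0.33, edgeR adjusted p = 0.85). The groups overlapped.

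Cpox (ENSMUSG00000022742.6, chr16:58670292-58717636) encodes coproporphyrinogen oxidase, which returns the pathway to the mitochondrion. It had 408, 430 and 296 CPM in 30 °C replicates 1, 2 and 3 and 184 and 184 CPM in 4 °C replicates 1 and 2. Every library at 30 °C was above both libraries at 4 °C, and Cpox was the only one of the 9 genes whose groups did not overlap, where 11.0% of all genes tested were lower at 4 °C without overlap and 12.2% were higher. The mean at 30 °C was 2.06 times that at 4 °C, 378 ± 71.8 CPM (SD, n = 3) against 184 ± 0.0584 CPM (SD, n = 2). On plain library totals 4 °C replicates 1 and 2 had 199 and 190 CPM, so the small SD at 4 °C depended on the scaling. The log2 fold change was -1.04 (standard error 0.21, 95% interval -1.56 to -0.52). It did not pass edgeR's adjustment over all genes (adjusted p = 0.69). In DESeq2 its log2 fold change was -1.05 with an adjusted p of 0.00851, a call that did not survive the omission of 30 °C replicate 1 (DESeq2 adjusted p = 0.0980), 30 °C replicate 2 (1.00), 4 °C replicate 1 (0.132) or 4 °C replicate 2 (0.269). It held without 30 °C replicate 3 (DESeq2 adjusted p = 3.77e-05).

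Ppox (ENSMUSG00000062729.11, chr1:171275990-171281186) encodes protoporphyrinogen oxidase, the enzyme before iron insertion. Its levels ran from 51.2 to 107 CPM at 30 °C and were 49.8 and 71.4 CPM at 4 °C, overlapping, with a log2 fold change of -0.47 (standard error 0.35, edgeR adjusted p = 0.84).

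Fech (ENSMUSG00000024588.9, chr18:64452914-64490251) encodes ferrochelatase, which inserts the iron. It had 431, 579 and 295 CPM in the libraries at 30 °C and 365 and 341 CPM in those at 4 °C. As for Alas2, the 30 °C libraries enclosed those at 4 °C, with 30 °C replicate 2 highest and 30 °C replicate 3 lowest. On plain library totals 30 °C replicate 1 was the highest instead, at 464 CPM against 427 CPM in 30 °C replicate 2. The log2 fold change was -0.30 (standard error 0.30, edgeR adjusted p = 0.87).

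Slc25a38 (ENSMUSG00000032519.11, chr9:120110374-120124504) encodes the carrier that brings glycine into the mitochondrion for the synthase. Its levels ran from 66.0 to 90.7 CPM at 30 °C and were 55.1 and 76.0 CPM at 4 °C, overlapping, with a log2 fold change of -0.32 (standard error 0.23, edgeR adjusted p = 0.84).

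Left-out libraries moved the other log2 fold changes too, without a change of sign. Uros ran from -0.42 without 4 °C replicate 1 to -1.20 without 4 °C replicate 2, Urod from -0.15 to -0.77, Ppox from -0.24 to -0.78 and Slc25a38 from -0.11 to -0.59 without the same libraries. Fech ran from -0.05 without 30 °C replicate 2 to -0.52 without 30 °C replicate 3. Cpox moved least, from -0.95 without 30 °C replicate 2 to -1.19 without 30 °C replicate 3.

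Every level of a haem gene rests on at least 647 counts in a library, which gives a counting error of at most 3.93%. For these genes the spread between libraries and not depth set the precision. Some marker genes had far fewer counts. Exons of a gene on the opposite strand overlap 15.5% of the exon length of Alas2 (Apex2 and Mir3620), 17.5% of Ppox (B4galt3), 7.53% of Alas1 (4930500F10Rik) and 3.06% of Cpox (Gpr15), and without a stated strand setting reads there cannot be told apart.

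**Figure D2:**
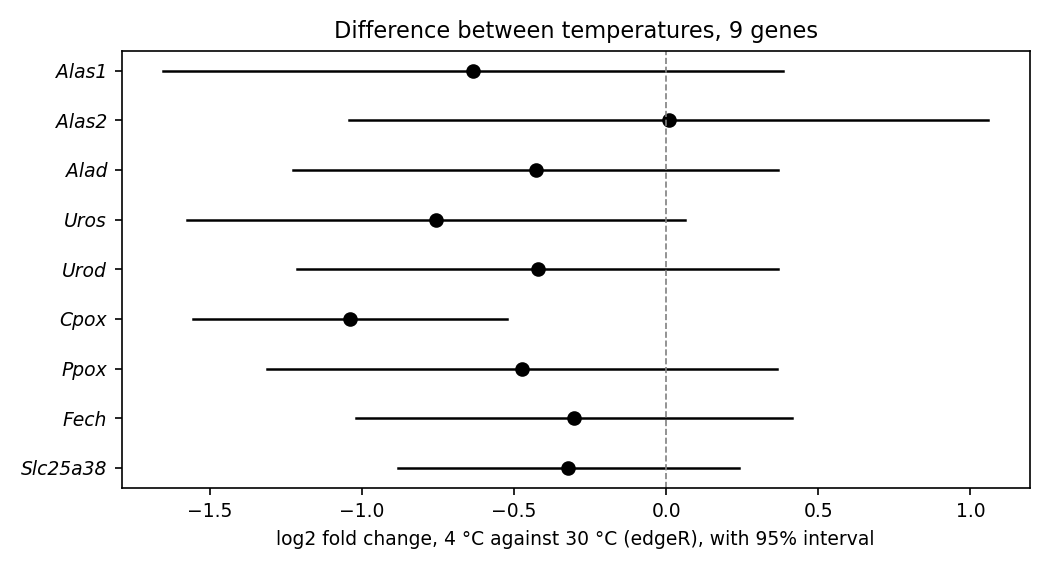
Log2 fold change of 4 °C against 30 °C for each haem synthesis gene from edgeR, with points at the estimate and bars for the 95% interval. Cpox, at -1.04 with an interval from -1.56 to -0.52, is the gene whose interval lies wholly below 0, and the interval of Alas2 spans -1.04 to 1.06.

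The 9 transcripts did not stand at one level. Averaged over the 5 libraries, Alas2 was the highest at 425 CPM per kilobase (206 to 628), and its range did not overlap that of the next gene. Alad at 73.0 and Urod at 69.2 CPM per kilobase followed, and Alad was above Urod in 3 of 5 libraries, so these neighbours did not separate. Cpox at 45.1 CPM per kilobase was below Urod and above Fech in 5 of 5 libraries, although the ranges over libraries overlapped. Fech at 29.0 and Slc25a38 at 27.4 CPM per kilobase did not separate, nor did Uros at 17.1 and Ppox at 16.6. Alas1 was the lowest at 10.7 CPM per kilobase and lay below Ppox in 5 of 5 libraries. This order depended on the length used, the union of annotated exons, which was 1871 bases in Alad and 13838 in Fech. In CPM not divided by length, Alas2 was again the highest, with a mean of 1022. Fech followed at 402, above Cpox at 300, Urod at 179 and Alad at 137. Uros was then the lowest at 61.3 CPM, below Alas1 at 65.8 CPM.

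Within a library, the balance between the genes moved as well. Alas2 made up 53.9%, 62.6% and 46.9% of the per-kilobase sum of the 9 genes at 30 °C and 70.8% and 59.6% at 4 °C, with overlapping groups. Cpox stood at 13.9%, 10.3% and 21.6% of the per-kilobase level of Alas2 at 30 °C and at 6.03% and 6.96% at 4 °C. Fech stood at 7.09%, 6.66% and 10.3% of it at 30 °C and at 5.76% and 6.21% at 4 °C. Both ratios were lower in each 4 °C library than in any 30 °C library, as were the ratios to Alas2 of 6.04% of all other genes tested. The other 6 ratios to Alas2 overlapped between the groups.

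Haem synthesis is read here beside other erythroid transcripts, because the amount of erythroid RNA differed between libraries. The mean log2 CPM of the 9 genes was 7.43 ± 0.46 over the 30 °C libraries (SD, n = 3) and 6.98 ± 0.26 over the 4 °C libraries (SD, n = 2), a difference of -0.45 that ran from -0.27 without 4 °C replicate 1 to -0.71 without 30 °C replicate 3. The mean of the 13 erythroblast markers differed by -0.36, from 8.96 ± 0.52 to 8.60 ± 0.12 log2 CPM, so the haem genes differed from those markers by a further -0.09 on the log2 scale. The 2 kinds of marker in the list went opposite ways. The 4 globin genes, Hbb-bs, Hbb-bt, Hba-a1 and Hba-a2, which code for the protein chains that hold haem, averaged 12.1, 12.7 and 11.1 log2 CPM at 30 °C and 12.5 log2 CPM in both libraries at 4 °C, a difference of 0.57 with overlapping groups. The other 9 markers, which include the membrane genes Slc4a1 and Rhag and the transcription factor gene Gata1, averaged 7.63 ± 0.40 log2 CPM at 30 °C and 6.86 ± 0.17 log2 CPM at 4 °C, a difference of -0.78 without overlap.

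Alas2 lay between these groups of markers. Its log2 CPM minus that of the globin genes was -2.03, -2.13 and -2.13 at 30 °C and -2.41 and -2.63 at 4 °C. Relative to the globin genes, both libraries at 4 °C were thus lower than any at 30 °C, as they were for 18.3% of all genes tested, with a difference in means of -0.42 on the log2 scale. Against the mean of all 13 markers, Alas2 was higher at 4 °C without overlap, by 0.51 on the log2 scale, as were 13.3% of all genes tested, and Cpox was lower without overlap, by a difference of -0.66, as were 2.41% of all genes. Against the 9 markers without globins, 5 of the 9 haem genes (Alas2, Urod, Ppox, Fech and Slc25a38) were higher at 4 °C without overlap. That share is read against 52.6% of all genes. For Ppox the nearest libraries, 30 °C replicate 1 and 4 °C replicate 1, stood at -1.11 and -1.10. Relative to those 9 markers Cpox was lower at 4 °C without overlap, by a difference of -0.24, as were 0.527% of all genes. Its nearest libraries, 30 °C replicate 1 and 4 °C replicate 1, stood at 0.82 and 0.78. For the mean of the 9 haem genes the difference was 0.33 against the markers without globins and -0.09 against all 13, so the direction for the list turned with the reference, while Cpox was lower against both.

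**Figure D3:**
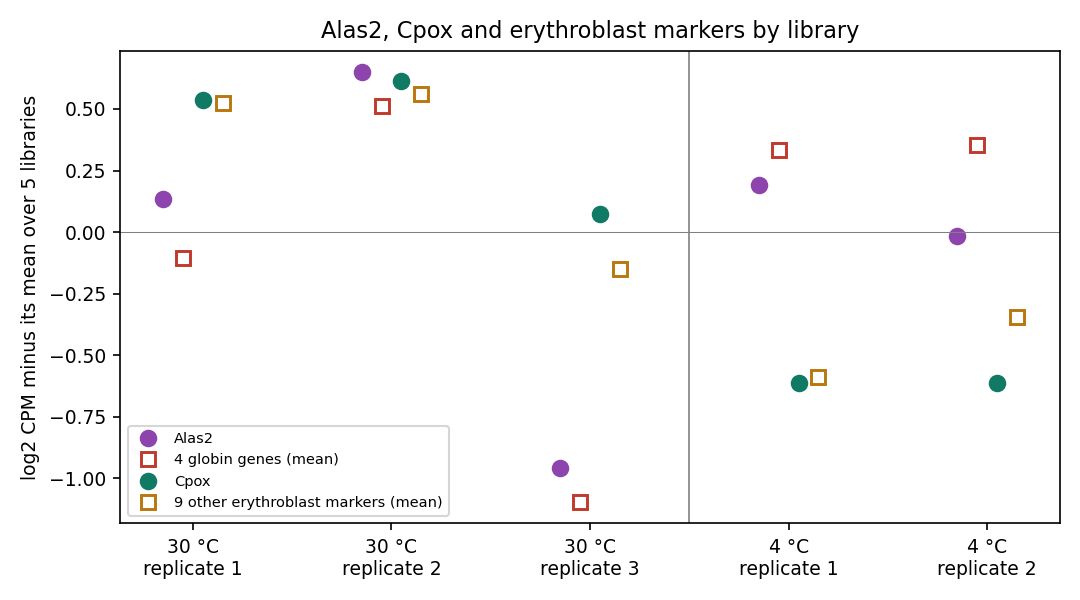
Log2 CPM of Alas2 and Cpox (filled circles) in each library, minus each gene's mean over the 5 libraries, beside the mean of the 4 globin genes and of the 9 other erythroblast markers (open squares). Cpox lies at -0.61 in both libraries at 4 °C, near the non-globin markers, while the globin genes lie above 0 there.

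The distance between centred log2 profiles over the 5 libraries (root mean square) was used to ask which genes followed Alas2 most closely. Among the 10 nearest of 16132 other genes were Hist1h1d at 0.0930, Fap at 0.113, Ube2l6 at 0.117 and Gm8416 at 0.140. They also held Bpgm at 0.146, Zfp503 at 0.156, Mkrn1 at 0.165, Fam220a at 0.166 and Gm43587 at 0.170, where the median over all genes was 0.611. Bpgm encodes the red-cell enzyme that makes 2,3-bisphosphoglycerate, and none of the 10 is a haem synthesis gene. The 10 were picked from 16132 genes over 5 libraries, and how small distances between unrelated genes become was not tested. Fech was the haem gene nearest to Alas2, at rank 99 and a distance of 0.293, and Urod followed at rank 857. Cpox was the farthest, at rank 10407 and a distance of 0.669, beyond the median gene. Measured from Cpox instead, the other 7 genes were nearer than the median gene (0.615), from Uros at 0.302 to Alas1 at 0.449, and Alas2 was the haem gene farther than it.

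Genes that feed the pathway with iron and glycine, carry its intermediates or use its product were read next, as 6 lists of 53 genes in all. Of these, 40 were lower and 13 higher at 4 °C, with a median log2 fold change of -0.21. No gene passed edgeR's adjustment (0% of all genes), DESeq2 called 1 (Abcb10), beside 0.891% of all genes it adjusted, and 5 of 53 had an unadjusted p under 0.05, all lower at 4 °C, beside 4.17% of all genes. These 5 were Tfrc, Tfr2, Steap3, Abcb10 and Slc6a9, of which Tfrc and Steap3 were named after their values were seen. Groups without overlap were found for 17 genes that were lower and 2 that were higher, beside 11.0% and 12.2% of all genes tested.

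Iron supply held 4 of the 5. Abcb10, a mitochondrial inner-membrane transporter of erythroid cells, had 201, 246 and 160 CPM at 30 °C and 99.97 and 112 CPM at 4 °C. Every library at 4 °C was below those at 30 °C, with a log2 fold change of -0.93 (standard error 0.23, edgeR adjusted p = 0.69, DESeq2 adjusted p = 0.0402). Tfr2, a sensor of iron-loaded transferrin, had 27.2, 28.3 and 24.5 CPM at 30 °C and 15.2 and 17.2 CPM at 4 °C, also without overlap, with a log2 fold change of -0.72. Tfrc, the receptor that brings transferrin iron into the cell, had 842, 578 and 323 CPM at 30 °C and 271 and 234 CPM at 4 °C, a log2 fold change of -1.20. Steap3, the reductase that frees that iron, had a log2 fold change of -0.68. In the same list 2 of 10 genes were higher in mean, Slc25a28, a mitochondrial iron carrier, at 0.23 and Ftl1, a ferritin chain, at 0.23 on the log2 scale.

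Glycine supply gave the lowest value of the 53. Slc6a9, the plasma-membrane glycine transporter, had 50.9, 57.8 and 23.9 CPM at 30 °C and 21.2 and 14.9 CPM at 4 °C. The groups did not overlap, and the log2 fold change was -1.29 (standard error 0.41, edgeR adjusted p = 0.69). Shmt2, the mitochondrial enzyme that makes glycine from serine, had a log2 fold change of -0.41 with overlapping groups.

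The remaining lists held no gene with an unadjusted p under 0.05. Of the 10 iron-sulfur cluster genes, 8 were lower and 2 higher in mean at 4 °C, with a median log2 fold change of -0.16. Among the 9 porphyrin and haem carriers the leading members by p were Abcg2 at -0.40, a porphyrin exporter, and Tspo2 at -0.55, both overlapping. Eif2ak1, the haem-sensing kinase that holds back globin translation when haem is short, had a log2 fold change of -0.48 without overlap. Lonp1, the mitochondrial protease that degrades the housekeeping synthase, had a log2 fold change of -0.33, also without overlap. Among the 7 genes that use or break down haem, Cox15, which makes haem A, differed by -0.37 without overlap, and Hmox2, a haem oxygenase, by 0.20 in the other direction without overlap.

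**Figure D4:**
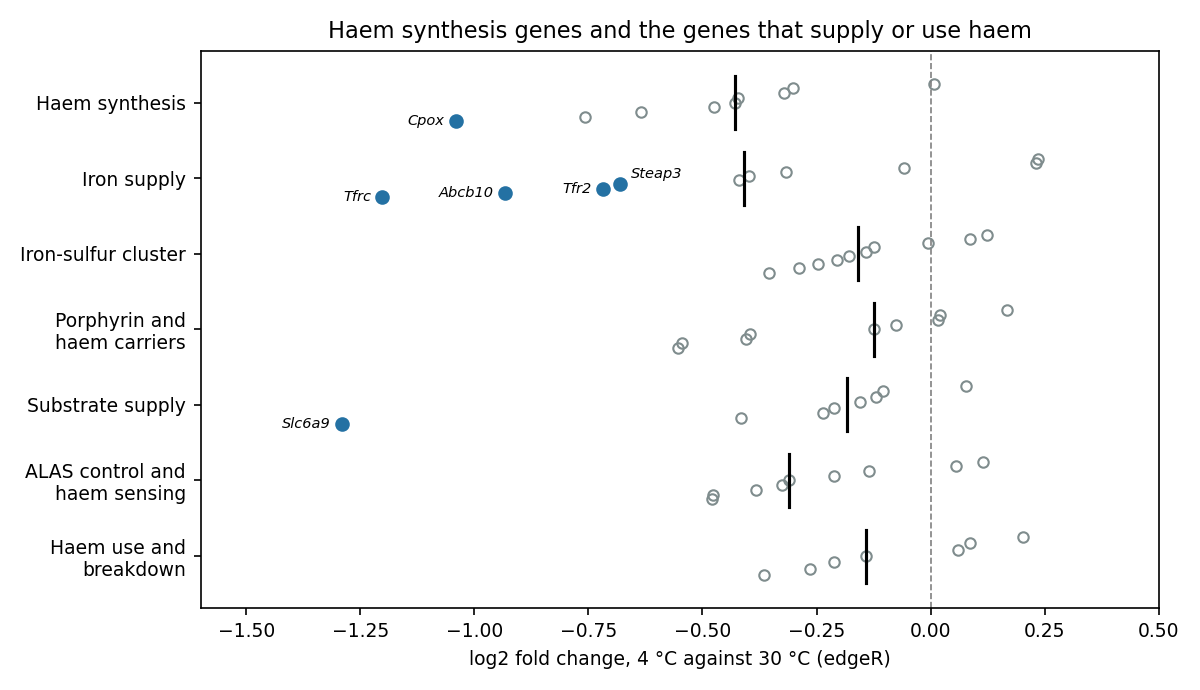
Log2 fold changes of 4 °C against 30 °C from edgeR for the 9 haem synthesis genes and the 6 lists of partner genes, 1 point per gene, with a bar at each list's median and filled points for an unadjusted p under 0.05. The filled points are Cpox, Tfrc, Abcb10, Tfr2, Steap3 and Slc6a9, all to the left of 0.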

How the data were processed

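RNA sequencing of tissue labelled as tumour was deposited as 1 table of raw counts per gene for 5 libraries (3 at 30 °C, 2 at 4 °C), with gene symbols. The authors' notes and methods name fastp, HISAT, RSEM and featureCounts on GRCm38 with Gencode annotation, and the strand setting and the handling of multiply mapped reads are not given in the sources used here. The deposited counts were used as they stand, and every value column was used. The 333 rows without a symbol held 0.0101% to 0.0170% of the counts and were left out. For 97 symbols shared between rows, the row with the highest mean carried the symbol.

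Genes were filtered with filterByExpr, scaled by TMM and tested with the quasi-likelihood F-test of edgeR 4.0.16 (R 4.3.3, robust estimation), 4 °C against 30 °C, with Benjamini-Hochberg adjustment over 16133 genes and a threshold of 0.05. Log2 CPM used a prior count of 2. DESeq2 1.42.0, the authors' kind of test, was an alternative, and the scripts were tested on simulated data. Other alternatives changed scaling, filter, prior count, replicate block and left-out libraries. Per-kilobase values used the union of exons. The Alas2 to Alas1 ratio was compared by an exact permutation test (scipy 1.17.1).

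All 9 haem genes were named, with the 2 genes of smallest p in each partner list and the 10 genes nearest to Alas2. Some genes that this rule takes in are not reported here. The members and lists were chosen with earlier results of these data known, partly by a previous analysis of the same files. Nothing in the labels states that libraries came from separate animals, so p-values measure the spread between these samples. Depth was 16191708 to 20320525 counts, and counting errors cover sampling of reads alone.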

Additional observations from a re-analysis of the deposited data

How the results depend on the processing

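The count of genes called moved from 0 in edgeR to 111 with DESeq2, 8 with plain library totals, 44 with a replicate block and 1090 at an unadjusted p under 0.05. Among the haem genes it moved from 0 to 1 with DESeq2 and to 1 unadjusted, and among the 53 partner genes from 0 to 1 and to 5. Alas2, at 0.01, changed sign with DESeq2 (-0.00699), relative log expression scaling (-0.0112), the acinar genes left out (-0.0148), the replicate block (-0.30), without 30 °C replicate 3 (-0.32) and without 4 °C replicate 1 (-0.10), and ran from -0.32 to 0.39 over left-out libraries. The number of haem genes lower at 4 °C was 8 or 9 in every edgeR and DESeq2 setting. Cpox ran from -1.19 to -0.90 over the alternatives, and its DESeq2 value was -1.05 (-1.20 without 30 °C replicate 3). DESeq2 with left-out libraries was chosen after seeing the data. The list relative to erythroblast markers moved from -0.09 to 0.33 when globins were left out. Plain library totals shifted the median of all genes to 0.11, where Cpox was -0.90 and the median of the haem genes -0.31.

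Replicate numbers 1 and 2 are shared by the groups, and the labels do not say whether they pair the libraries. The correlations of deviations from the group mean were -0.25 and 0.28. They cannot decide it, because the deviations of the 2 libraries at 4 °C mirror each other. With the block, Cpox was -1.19 (edgeR adjusted p = 0.20) and no haem gene was called. Leaving out a 4 °C library leaves 1 sample, which is then assumed to vary like the others. Depth limited no haem gene, and the number of libraries limited every one.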
